A study of Mus musculus with 10 samples.

Results

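The 54 genes described here are interferon-induced genes of the mouse, chosen by name out of the 53715 genes counted in microglia of the midbrain (Mdb) and the striatum (Str). They comprised 4 transcription factors, 4 genes of the Ifitm cluster, 5 genes of the Ifi200 cluster, 9 GTPases, 15 antiviral effectors, 2 sensors of viral RNA, 2 genes of the ISG15 system and 13 other induced genes. All 54 were found in the table, and 53 passed the filter on low counts in each cohort and over both. The remaining gene, Ifi44, reached 0.849 CPM (counts scaled to a library of 1000000) at most and could not be tested.

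Interferons are secreted signals. Many cells release type I interferons when they sense viral nucleic acids, and activated T and NK cells release interferon gamma. They bind receptors at the cell surface, and the kinases of these receptors activate transcription factors, among them Stat2, which with Irf9 binds a DNA element, the interferon-stimulated response element (ISRE), and switches on a set of antiviral genes. Microglia, the resident macrophages of the brain, answer interferons in this way, and blood leukocytes that carry the same surface integrin, CD11b, do so too.

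All mice were untreated males of the strain C57BL/6 aged 3 months, and their microglia were taken from perfused brains by papain digestion, a Percoll step and magnetic beads against CD11b. Bulk poly-A RNA was sequenced with MARS-seq, which reads the 3′ ends of transcripts, in a pilot cohort with 2 midbrain and 2 striatum libraries and in a second cohort. In the second cohort, libraries 1 and 3 of each region were compared, and the other 2 libraries, whose titles and file names disagree on the region, were left out of the groups. The study took both regions from the same mice, but the labels do not say which libraries share a mouse, and the selection by CD11b retains any cell that carries it.

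The 8 libraries held between 575709 and 8463782 counts. The shallowest was striatum library 3 of the second cohort, where 3 counts, the floor used here for a level above 0, stood for 5.16 CPM. In the other 7 libraries the floor was 0.351 to 1.09 CPM. Floors and intervals cover counting error only. Levels are given as CPM scaled with TMM factors, which adjust the library sizes to a common trimmed mean, and fold changes are log2 of midbrain over striatum ± SE from voom and limma. The homeostatic microglia markers, 14 genes such as P2ry12, Tmem119 and Cst3, summed to between 52021 and 113002 CPM in each library, most of it from Cst3.

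More of the interferon-induced genes were called higher in the midbrain than lower, in each cohort and in the joint fit. Irf7, the factor that amplifies interferon responses, 3 of the 4 Ifitm genes, the Ifi200 genes Ifi204 and Ifi207, and Slfn5 were higher in the midbrain in both cohorts. The guanylate-binding proteins and most immunity-related GTPases, the Ifit genes and the components of the interferon receptor did not pass the test in either cohort. A further group, with Oas2, Oas3, Zbp1, Isg15, Mx1 and Rtp4, was called in the second cohort alone. In bulk RNA, a larger share of cells with a high level and more RNA per cell cannot be told apart.

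In the pilot cohort, 8 of 53 members (15.1%) were higher in the midbrain at an unadjusted p under 0.01, against 2.09% of the 14972 genes tested, and 0 were lower, against 0.548%. In the second cohort, 19 of 53 (35.8%) were higher, against 2.88% of 13486 genes, and 0 were lower, against 0.593%. This count depends on the 2 libraries with conflicting labels. Placed by title, they left 0 members called in the second cohort, in both cohorts and in the joint fit, while 46 genes of the whole table were higher and 86 lower in the second cohort and 0 were called jointly. Placed in the other region, they gave 22 members called in the second cohort, 18 of them among the 19. In that fit 521 genes of the whole table were higher and 171 lower. With these 2 libraries left out, both cohorts called 7 members in the same direction, Irf7, Ifitm1, Ifitm2, Ifitm6, Ifi204, Ifi207 and Slfn5. That is 13.2% of the members tested, against 1.18% of the 13210 genes tested in both. The median log2 fold change over the members was 0.42 in the pilot cohort and 0.95 in the second, beside 0.02 and −0.001 over all genes tested. Of the 53 members, 20 (37.7%) had both midbrain libraries above both striatum libraries in both cohorts, against 9.27% of all genes.

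A joint fit over the 8 libraries, which included a term for the cohort and called genes at a Benjamini-Hochberg adjusted p under 0.05, gave 6 of 53 members (11.3%) as higher in the midbrain, against 0.975% of 14053 genes. These were Irf7, Ifitm2, Ifitm6, Ifi203, Ifi207 and Ifi27l2a, and no member was lower, against 0.0854% of all genes. The median log2 fold change of the members was 0.57, against 0.04 over all genes. The joint calls rested on single libraries. None of the members stayed under the threshold when midbrain library 1 of the pilot cohort, striatum library 1 of the pilot cohort, striatum library 1 of the second cohort or its shallow striatum library 3 was left out, and in these 4 fits 0, 9, 0 and 3 genes were called over the whole table. Without midbrain library 1 of the second cohort, 6 members were called, 5 of them from the first list.

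**Figure D1:**
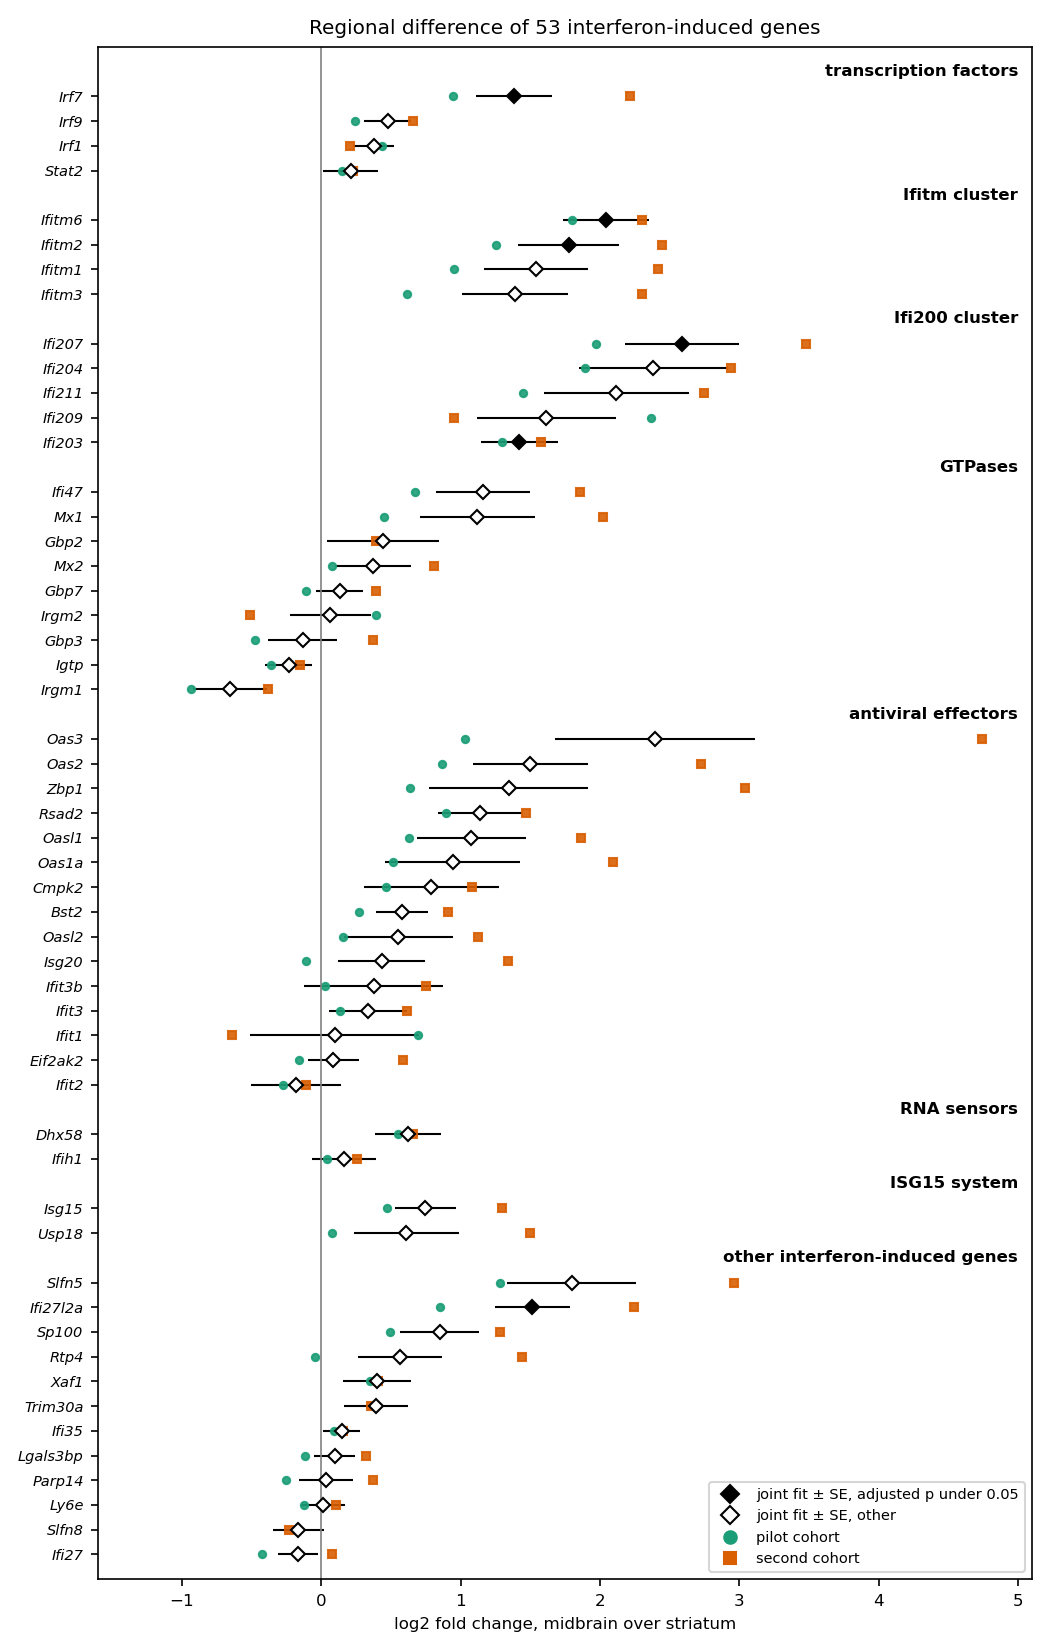
Log2 fold change of midbrain over striatum (horizontal axis) for the 53 members tested, sorted by group and by size. Diamonds give the joint fit with its SE, filled for the 6 genes with an adjusted p under 0.05, circles the pilot cohort and squares the second cohort. The Ifitm and Ifi200 genes lie right of 0 in both cohorts, between 0.61 and 2.37 in the pilot, and the GTPases spread from −0.93 to 0.67 there.

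Markers of other CD11b-carrying or blood-derived cells moved with these genes, and their part in the results was not tested. The neutrophil list, 14 genes such as S100a8 and Lcn2, summed to 1229 to 1601 CPM in the midbrain and 904 to 938 CPM in the striatum of the pilot cohort, and to 4382 to 6805 and 984 to 1057 CPM in the second. In the joint fit, 6 of its 12 tested genes were called higher in the midbrain, against 0.975% of all genes. So were 4 of 15 monocyte markers (Ccr2, Ly6c2, Ms4a4c and Nr4a1), 6 of 11 markers of border macrophages and 1 of 9 markers of T and NK cells. Monocyte markers summed to 1237 to 1315 against 563 to 824 CPM in the pilot cohort and to 1612 to 4172 against 553 to 727 CPM in the second. Nr4a1 alone made up most of the pilot sums, with 844 and 886 against 376 and 640 CPM. In the second cohort it had 813 and 718 against 346 and 371 CPM. Border macrophage markers, 12 genes such as Mrc1 and Lyve1, gave 1577 to 1906 against 618 to 924 CPM and 2353 to 2848 against 352 to 364 CPM. For T and NK cells the sums were 96.6 to 124 against 30.5 to 55.9 CPM and 207 to 335 against 15.5 to 65.8 CPM. All 9 genes of this list tested in the joint fit had log2 fold changes above 0. Among its T cell genes, Trbc2 had 1.37 and 2.71 against 0.190 and 0.702 CPM, and 4.88 and 3.94 against 1.09 and 0 CPM. Trac and Cd3d did not enter the joint fit. Trac overlapped in both cohorts, at 0.342 and 2.17 against 2.47 and 0.351 CPM and at 1.06 and 1.86 against 1.09 and 0 CPM. Cd3d overlapped in the pilot, at 0.685 and 0.181 against 0.190 and 0.585 CPM, and had 1.70 and 2.32 against 0.364 and 0 CPM in the second. Cd3e, too scarce to be tested, was at 0 in 5 of the 8 libraries and never above 0.212 CPM. None of the genes on these 4 lists was at 0 in all 8 libraries.

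Homeostatic microglia markers went the other way, with 2 of 14 genes, Siglech and Olfml3, called lower in the midbrain in the joint fit and a median log2 fold change of −0.56. Their sums were 52021 to 65893 CPM in the midbrain and 67883 to 68437 CPM in the striatum of the pilot cohort, and 63913 to 66604 against 93548 to 113002 CPM in the second. Most of each sum was Cst3, at 34811 and 46271 against 44344 and 42318 CPM in the pilot cohort, where its regions overlapped. In the second cohort Cst3 was at 45133 and 45468 against 85721 and 61020 CPM. Of 14 immediate early genes, which the dissociation of tissue can induce, 1 was called higher in the midbrain in the joint fit. The pilot cohort called 2 and the second 6, and the shares of all genes in these 3 fits were 0.975%, 2.09% and 2.88%. In the pilot cohort the regions overlapped, with sums of 19928 to 23622 against 14831 to 24034 CPM. The sums in the second cohort were 22660 to 24742 against 12135 to 12609 CPM. Dendritic cell markers moved in part, with 7 of 8 tested genes above 0 and a median log2 fold change of 1.1 in the joint fit. In the second cohort Bst2, Ccr7 and Cd209a were called higher, the last pair at 3.97 ± 0.89 and 3.82 ± 0.88, and their part in the results was not tested. There 5 of 8 tested genes were above 0 and 3 below, Siglech (−0.94 ± 0.27, called lower), Itgae (−0.60 ± 0.66) and Zbtb46 (−0.36 ± 0.61). Cd209a is on the border macrophage list too. B cell, dendritic cell, endothelial, astrocyte, oligodendrocyte and neuron markers, 7, 9, 12, 8, 8 and 12 genes, had 0 genes called higher in the joint fit and 1 lower, Siglech, which is also a marker of plasmacytoid dendritic cells. Bst2, a member described here, is on the dendritic cell list as well.

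**Figure D2:**
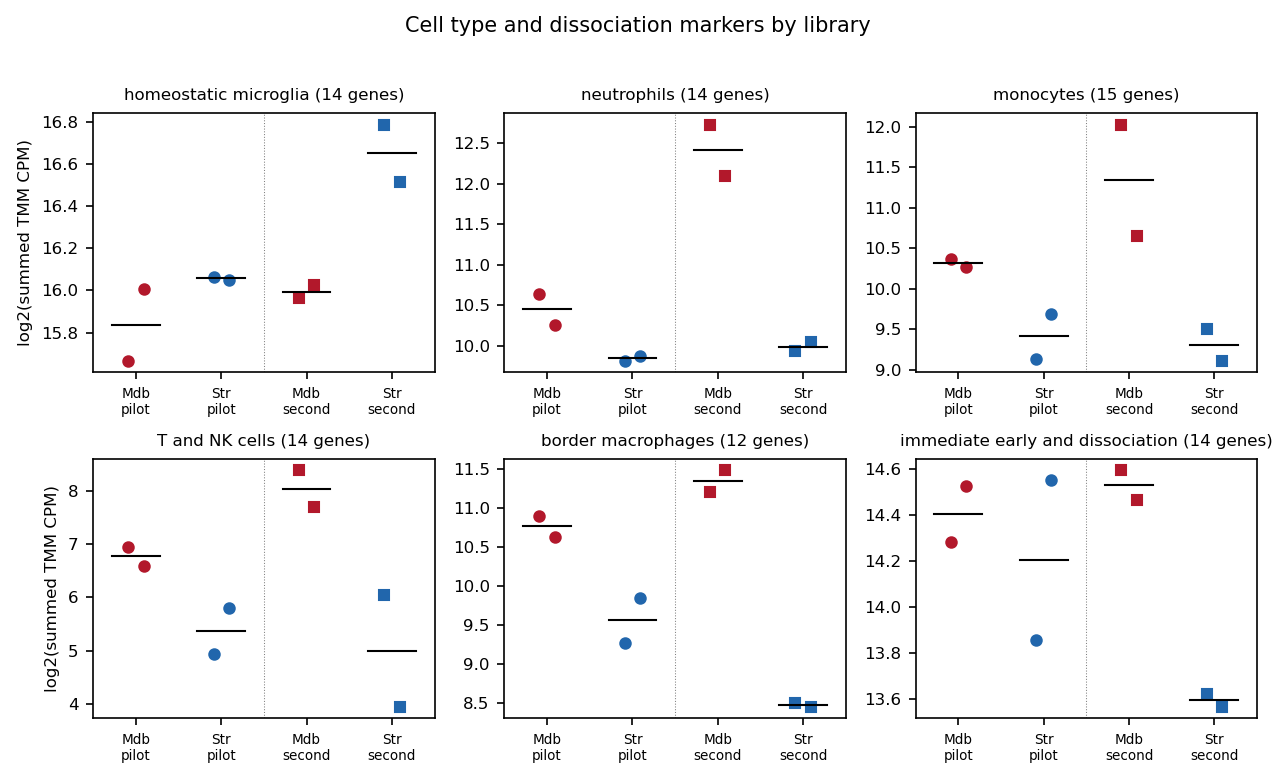
Summed level of 6 marker lists in each library, as log2 of the summed CPM (vertical axes do not start at 0). Points are libraries, red for midbrain and blue for striatum, circles for the pilot and squares for the second cohort, and bars are means of 2 libraries. Neutrophil, monocyte, T and NK cell and border macrophage sums were above the striatum in all 4 midbrain libraries, for example 1229 to 6805 CPM against 904 to 1057 CPM for neutrophils.

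As examples from called and uncalled members, the 120 bases before the RefSeq start site (GRCm38, strand of the gene, 5′ to 3′) are printed for genes of both kinds, with each match to the core of the ISRE, GAAANNGAAA on either strand, in capitals. Only genes with a match in these bases were chosen, so its presence in them is no result. Ifitm1, Ifitm6, Ifi47, Sp100 and Irf7, which were called, hold no match and are not shown. Ifi203, Ifi207, Ifi211 and Ifitm2 belong to the Ifi200 and Ifitm clusters and were each called higher in the midbrain in at least 1 fit, Oas3 and Isg15 were called in the second cohort only, and Igtp, Irgm1 and Gbp3 are GTPases that were not called.
Ifi203 (chr1:173942493-173942612, minus strand): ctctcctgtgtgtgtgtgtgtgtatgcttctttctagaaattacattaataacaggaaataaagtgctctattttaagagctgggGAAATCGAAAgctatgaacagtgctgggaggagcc
Ifi207 (chr1:173741810-173741929, minus strand): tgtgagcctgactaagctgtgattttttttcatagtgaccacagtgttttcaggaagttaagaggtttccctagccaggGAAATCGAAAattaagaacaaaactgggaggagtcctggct
Ifi211 (chr1:173913047-173913166, minus strand): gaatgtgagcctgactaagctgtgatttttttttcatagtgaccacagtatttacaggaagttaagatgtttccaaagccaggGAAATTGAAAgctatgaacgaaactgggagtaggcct
Ifitm2 (chr7:140955962-140956081, minus strand): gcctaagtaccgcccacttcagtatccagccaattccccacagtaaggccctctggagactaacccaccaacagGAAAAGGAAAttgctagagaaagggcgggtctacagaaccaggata
Oas3 (chr5:120777660-120777779, minus strand): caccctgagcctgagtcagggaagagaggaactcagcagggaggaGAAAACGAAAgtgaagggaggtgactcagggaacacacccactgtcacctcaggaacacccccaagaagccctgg
Isg15 (chr4:156200819-156200938, minus strand): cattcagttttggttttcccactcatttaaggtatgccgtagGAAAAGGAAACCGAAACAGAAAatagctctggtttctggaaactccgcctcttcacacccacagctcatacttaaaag
Igtp (chr11:58199436-58199555, plus strand): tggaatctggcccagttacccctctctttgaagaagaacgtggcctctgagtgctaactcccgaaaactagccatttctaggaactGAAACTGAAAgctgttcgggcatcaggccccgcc
Irgm1 (chr11:48871421-48871540, minus strand): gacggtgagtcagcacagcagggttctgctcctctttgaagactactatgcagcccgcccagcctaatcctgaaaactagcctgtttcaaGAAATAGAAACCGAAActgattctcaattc
Gbp3 (chr3:142559924-142560043, plus strand): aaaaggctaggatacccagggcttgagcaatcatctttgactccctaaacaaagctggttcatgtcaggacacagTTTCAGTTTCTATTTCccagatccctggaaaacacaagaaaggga

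The match began between 24 and 78 bases before the start site in these 9 genes, with 1 match in Ifi203, Ifi207, Ifi211, Ifitm2, Oas3 and Igtp, 2 overlapping matches in Irgm1 and Gbp3 and 3 in Isg15. In windows of 250 bases before to 50 bases after each start, 25 of the 42 members found in the RefSeq table (59.5%) held the motif, against 1079 of 27025 genes (3.99%). Members that were called in a cohort or in the joint fit held it in 9 of 14 cases, and the other members in 16 of 28. A second motif, TTCNNNGAA, the core of the gamma-activated site (GAS), was present in 12 of 42 members and in 9.55% of all genes. Matches to the 2 motifs can share bases, as they do in Bst2 and Ifitm3. By group, the ISRE core was found in 6 of 7 GTPases, 8 of 13 antiviral effectors, 3 of 4 Ifi200 genes and 2 of 4 Ifitm genes. Irf7, which was called, has no match in its window. These are matches of letters and do not show that a factor binds there.

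Among the 4 transcription factors, Irf7 alone was called. It lies on chr7:141262706-141266481 and shares 45 exonic bases with Phrf1 on the other strand, which counting without strand cannot separate. Its level was 86.3 and 57.6 CPM in the midbrain and 29.8 and 40.7 CPM in the striatum of the pilot cohort, and 115 and 93.7 against 25.5 and 13.7 CPM in the second. Every midbrain library was above every striatum library of either cohort. The log2 fold change was 0.95 ± 0.27 in the pilot cohort, 2.21 ± 0.39 in the second (adjusted p = 0.0459) and 1.38 ± 0.27 in the joint fit (adjusted p = 0.041).

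Irf9, the DNA-binding partner of Stat2, stood at 69.3 and 63.2 against 56.1 and 52.4 CPM in the pilot cohort and at 126 and 152 against 73.5 and 120 CPM in the second. The regions did not overlap within either cohort, but the difference was small, 0.48 ± 0.17 in the joint fit (adjusted p = 0.221). Irf1, a factor induced by interferon gamma, was at 168 and 171 against 106 and 138 CPM in the pilot cohort and at 136 and 123 against 103 and 127 CPM in the second, where the regions overlapped (joint log2 fold change 0.38 ± 0.15, adjusted p = 0.26). Stat2 had 53.9 and 48.2 against 40.0 and 48.5 CPM, and 68.7 and 39.9 against 46.9 and 37.8 CPM. Its regions overlapped in both cohorts, with a joint log2 fold change of 0.21 ± 0.20 (adjusted p = 0.668).

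The Ifitm genes encode small membrane proteins that hinder the entry of viruses into cells. The 4 members lie within 63.1 kb at chr7:140954837-141017924, and all 4 had both midbrain libraries above both striatum libraries in each cohort. Ifitm6 was at 54.6 and 35.8 against 12.7 and 11.9 CPM in the pilot cohort and at 168 and 86.6 against 27.6 and 15.5 CPM in the second. Its log2 fold change was 1.80 ± 0.30 and 2.30 ± 0.47 in the 2 cohorts, with an interaction of 0.47 ± 0.64, and 2.04 ± 0.31 in the joint fit (adjusted p = 0.0181), which is a 4.12-fold difference.

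Ifitm2 had 43.3 and 36.7 against 19.2 and 14.2 CPM in the pilot cohort and 196 and 80.5 against 25.5 and 15.5 CPM in the second, with a joint log2 fold change of 1.78 ± 0.36 (adjusted p = 0.0434). The gene shares 268 exonic bases with Gm45717 on the same strand. Ifitm1 had 50.2 and 37.6 against 19.3 and 23.6 CPM, and 186 and 110 against 40.0 and 6.87 CPM. It was called in both cohorts, at 0.95 ± 0.25 and 2.41 ± 0.56, and missed the joint threshold at 1.54 ± 0.37 (adjusted p = 0.0793). Ifitm3, the best-studied restriction factor of the family, was at 113 and 92.5 against 57.6 and 71.5 CPM in the pilot cohort, where 0.61 ± 0.21 was not called, and at 706 and 250 against 99.7 and 58.4 CPM in the second, where 2.30 ± 0.48 was called. Its joint log2 fold change was 1.39 ± 0.38 (adjusted p = 0.114).

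In the second cohort, midbrain library 1 held the highest level of all 4 Ifitm genes. The same library held the highest S100a8, 1121 CPM against 244 CPM in library 3, and the highest Plac8, a monocyte marker, 1112 against 120 CPM. The neutrophil list was split between these libraries. S100a9 and Retnlg were higher in library 1 too, at 3913 against 1362 and 674 against 266 CPM. Camp, Ngp, Ltf and Lcn2 were lower there, at 69.6 against 502, 123 against 788, 38.0 against 273 and 153 against 330 CPM. Library 3 too was above both striatum libraries of its cohort for all 4 Ifitm genes. It was also above them for S100a8 (45.5 and 44.7 CPM in the striatum) and Plac8 (46.6 and 60.1 CPM). The part of neutrophils and monocytes was not tested. The Ifitm genes are close paralogs, and reads shared between them may have been lost or misplaced in counting.

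The Ifi200 genes encode nuclear proteins of the PYHIN family, some of which bind DNA and act as sensors. The 5 members lie within 312 kb at chr1:173630917-173942672, and in all 5 the midbrain libraries stood above the striatum libraries of their cohort. Ifi207 was at 33.2 and 31.6 against 7.40 and 8.30 CPM in the pilot cohort and at 146 and 66.1 against 8.37 and 8.59 CPM in the second. Its striatum level hardly differed between the cohorts, and the log2 fold change was 1.97 ± 0.28, 3.48 ± 0.62 (adjusted p = 0.0461) and 2.59 ± 0.41 in the joint fit (adjusted p = 0.0181), a 6.01-fold difference.

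Ifi204, a DNA sensor that signals to interferon genes, had 18.8 and 22.6 against 5.69 and 5.03 CPM in the pilot cohort and 105 and 32.5 against 5.09 and 20.6 CPM in the second. The value of 20.6 CPM comes from the shallow striatum library 3, where the floor is 5.16 CPM. The gene was called in both cohorts, at 1.89 ± 0.33 and 2.94 ± 0.79, and its joint adjusted p was 0.0598. Ifi203 had 17.6 and 19.1 against 8.34 and 6.43 CPM, and 17.2 and 25.8 against 8.37 and 3.44 CPM. It was the only member called in the pilot cohort (1.30 ± 0.30) and not in the second (1.58 ± 0.58), and it passed in the joint fit at 1.42 ± 0.28 (adjusted p = 0.0392). It shares 37 exonic bases with its neighbour Mndal.

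Ifi209 and Ifi211 were scarce. Ifi209 had 4.45 and 2.53 against 1.14 and 0.351 CPM in the pilot cohort and 7.0 and 9.51 against 4.0 and 3.44 CPM in the second, and was called in neither cohort (joint log2 fold change 1.61 ± 0.50, adjusted p = 0.157). Ifi211 had 2.40 and 2.35 against 0.379 and 1.29 CPM, and 8.91 and 5.57 against 1.09 and 0 CPM. In the second cohort its striatum libraries held 3 counts together against 66 in the midbrain, a ratio of 8.12 with a 95% counting interval of 2.66 to 40.4. The gene was called there at 2.74 ± 0.78, and its joint adjusted p was 0.0816.

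**Figure D3:**
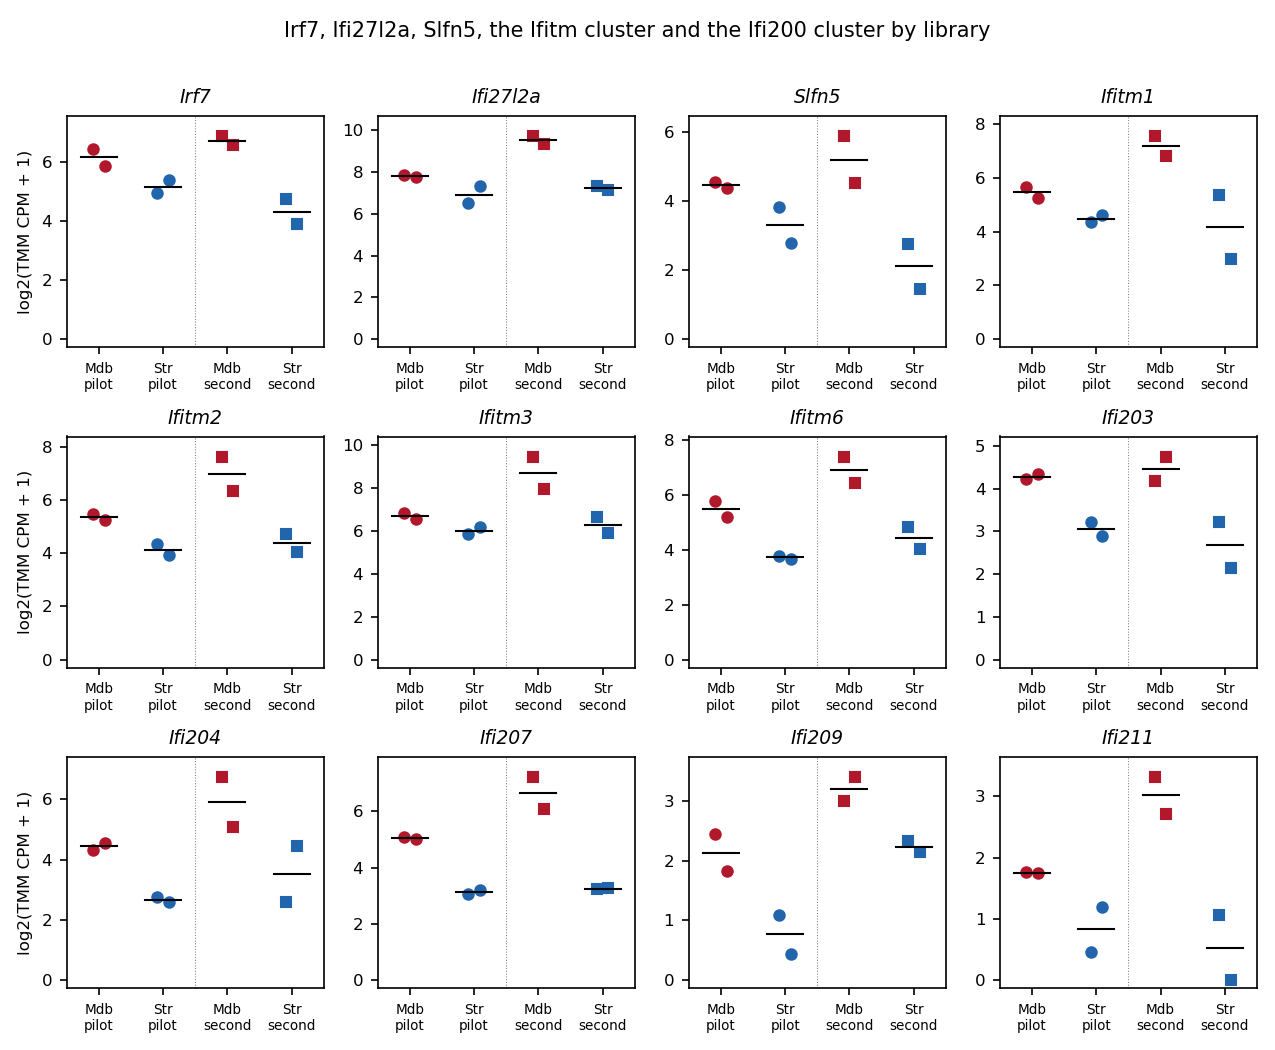
Levels of 12 members in the 8 libraries, as log2(TMM CPM + 1). Points are libraries, red for midbrain and blue for striatum, circles for the pilot and squares for the second cohort, with the lower replicate number to the left, and bars are means of 2 libraries. In each panel the midbrain points lie above the striatum points of the same cohort, from 33.2 and 31.6 against 7.40 and 8.30 CPM for Ifi207 to 4.45 and 2.53 against 1.14 and 0.351 CPM for Ifi209.

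Of the 9 interferon-induced GTPases, 2 were called, both in the second cohort. Guanylate-binding proteins and immunity-related GTPases attack vacuoles that hold intracellular pathogens, and the Mx proteins block viruses. In the pilot cohort 0 of 9 were called, with a median log2 fold change of 0.08, in the second cohort 2 of 9, with a median of 0.39, and in the joint fit 0 of 9, with a median of 0.13. Of all genes, 2.09%, 2.88% and 0.975% were called higher in these fits, so the counts of 0 are near the background and the 2 of 9 are above it. Gbp7 was at 84.6 and 85.2 against 80.6 and 96.5 CPM in the pilot cohort and at 113 and 83.8 against 68.4 and 85.9 CPM in the second (joint log2 fold change 0.13 ± 0.17, adjusted p = 0.765), and its regions overlapped in both. Igtp, which shares 162 exonic bases with Irgm2, was at 49.3 and 45.7 against 49.7 and 68.4 CPM and at 54.5 and 56.6 against 54.6 and 79.0 CPM (−0.23 ± 0.17, adjusted p = 0.566), lower in both midbrain libraries of the pilot cohort and overlapping in the second.

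Irgm1, Gbp3 and Irgm2 had joint log2 fold changes of −0.66, −0.13 and 0.07, and Gbp2 and Mx2 of 0.44 and 0.37, none of them called in any of the 3 fits. The GTPases called in the second cohort were Ifi47 and Mx1. Ifi47 had 7.88 and 7.58 against 3.41 and 5.85 CPM in the pilot cohort and 18.0 and 17.9 against 5.09 and 3.44 CPM in the second, where its log2 fold change was 1.85 ± 0.56. Mx1 had 8.56 and 8.49 against 3.60 and 8.65 CPM, and 22.1 and 21.8 against 3.64 and 12 CPM, with 2.02 ± 0.57 in the second cohort. For both genes the midbrain libraries of the second cohort were nearly equal and above both striatum libraries.

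Of the 15 antiviral effectors, 0 were called in the pilot cohort (median log2 fold change 0.46), 4 in the second (median 1.12) and 0 in the joint fit (median 0.58). The shares of all genes called higher in these fits were 2.09%, 2.88% and 0.975%. The counts of 0 are thus near the background, and the 4 of 15 are above it. Oas2 and Oas3 make the short oligoadenylates that activate RNase L. Oas2 was at 39.9 and 26.2 against 8.91 and 27.8 CPM in the pilot cohort, where the regions overlapped, and at 73.0 and 65.2 against 10.5 and 8.59 CPM in the second. Its log2 fold change was 0.87 ± 0.46 and 2.73 ± 0.44 (adjusted p = 0.0307 in the second cohort), and the joint value was 1.5 ± 0.41 (adjusted p = 0.115).

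Oas3 had 7.19 and 6.14 against 0.948 and 6.90 CPM in the pilot cohort and 18.7 and 18.1 against 0.364 and 0 CPM in the second. There the striatum held 1 count in all against 166 in the midbrain, a ratio of 61.3 with a 95% counting interval of 10.8 to 2435, and the fitted log2 fold change of 4.74 ± 0.75 (adjusted p = 0.0297) is no bound on it. In the pilot cohort, striatum library 2 reached the midbrain level of both Oas genes and striatum library 1 did not.

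Zbp1, a sensor of nucleic acids in the left-handed Z form, was at 20.4 and 16.3 against 6.45 and 17.1 CPM in the pilot cohort and at 69.0 and 41.5 against 16.4 and 0 CPM in the second, with a second-cohort log2 fold change of 3.04 ± 0.91. Bst2, or tetherin, which holds budding virus at the cell membrane, had 507 and 494 against 354 and 460 CPM, and 453 and 624 against 333 and 218 CPM. Its midbrain libraries stood above the striatum in both cohorts, but the difference was smaller, 0.27 ± 0.20 and 0.91 ± 0.29, with a joint value of 0.58 ± 0.18 (adjusted p = 0.17).

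Eif2ak2, the kinase PKR that halts translation, was at 44.9 and 48.0 against 46.3 and 53.6 CPM in the pilot cohort and at 30.6 and 30.9 against 20.4 and 18.9 CPM in the second, with a joint log2 fold change of 0.09 ± 0.18 (adjusted p = 0.865). The regions overlapped in the pilot cohort, and the midbrain was higher in the second. Ifit3 and Ifit3b, near-identical genes whose reads may be split between them, overlapped between the regions in both cohorts. Ifit3 had 12 and 12.5 against 8.15 and 13.1 CPM in the pilot cohort and 12.1 and 17.9 against 8.0 and 13.7 CPM in the second, with a joint log2 fold change of 0.33 ± 0.28. Ifit3b had 2.05 and 1.44 against 1.14 and 2.10 CPM, and 2.12 and 3.71 against 2.55 and 0 CPM. The 8 remaining effectors, Isg20, Ifit1, Ifit2, Oas1a, Oasl1, Oasl2, Rsad2 and Cmpk2, were called in none of the 3 fits, with joint log2 fold changes from −0.18 (Ifit2) to 1.14 (Rsad2, adjusted p = 0.0986).

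The sensors of double-stranded RNA were not called. Ifih1, or MDA5, was at 12 and 12.5 against 12.5 and 10.8 CPM in the pilot cohort and at 15.9 and 22.0 against 16.4 and 12 CPM in the second (joint log2 fold change 0.16 ± 0.23, adjusted p = 0.785). Dhx58, or LGP2, was at 13.7 and 14.6 against 7.40 and 11 CPM and at 15.5 and 17.2 against 9.82 and 10.3 CPM (0.62 ± 0.24, adjusted p = 0.257). The regions of Dhx58 did not overlap within a cohort, and those of Ifih1 did.

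Isg15, a ubiquitin-like protein that is attached to other proteins, had 79.8 and 82.0 against 46.5 and 66.7 CPM in the pilot cohort and 71.1 and 62.4 against 32.7 and 13.7 CPM in the second. It was called in the second cohort at 1.30 ± 0.40, beside 0.47 ± 0.23 in the pilot, and the joint value was 0.75 ± 0.22 (adjusted p = 0.137). Usp18, which removes Isg15 and restrains the receptor, had 6.85 and 7.58 against 6.64 and 6.55 CPM, and 13.6 and 20.9 against 8.37 and 1.72 CPM, and was called in no fit (joint log2 fold change 0.61 ± 0.38). Both genes had their midbrain libraries above the striatum in each cohort, although Usp18 did so by under 1 CPM in the pilot.

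Among the other induced genes, Ifi27l2a had the smallest adjusted p of the members in the second cohort. It was at 230 and 218 against 90.8 and 158 CPM in the pilot cohort and at 834 and 640 against 159 and 141 CPM in the second. The log2 fold change was 0.85 ± 0.26 in the pilot cohort, just outside the threshold at an unadjusted limma p of 0.0105, 2.25 ± 0.26 in the second (adjusted p = 0.00489) and 1.52 ± 0.27 in the joint fit (adjusted p = 0.0277). When at least 10 counts were required in every library, Ifi27l2a was the only one called of the 23 members tested in the joint fit. Irf7, Ifitm2, Ifitm6, Ifi203 and Ifi207, also on the joint list, fell short of that count. They could not enter that fit, so it does not compare their calls with that of Ifi27l2a.

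Slfn5, of the Schlafen family, had 22.4 and 19.9 against 13.3 and 5.96 CPM in the pilot cohort and 57.7 and 22.0 against 5.82 and 1.72 CPM in the second. It was called in both cohorts, at 1.28 ± 0.36 and 2.96 ± 0.85, and its joint adjusted p was 0.0944, but 559 of its exonic bases are shared with the antisense gene Slfn5os. The pilot call of Slfn5 was lost in 7 of 13 alternatives, among them edgeR, DESeq2 and thinned counts, and the second-cohort call in 5 of 14. The value of 1.72 CPM comes from the shallow striatum library 3 and lies under its floor of 5.16 CPM. Rtp4 was at 30.6 and 28 against 19.7 and 39.6 CPM and at 67.5 and 70.1 against 24.0 and 27.5 CPM, with log2 fold changes of −0.04 ± 0.34 and 1.44 ± 0.35. Sp100, a protein of nuclear bodies, was at 32.4 and 20.8 against 13.7 and 21.9 CPM and at 72.1 and 44.3 against 21.5 and 27.5 CPM, with 0.49 ± 0.33 and 1.29 ± 0.40. Rtp4 and Sp100 thus overlapped between the regions in the pilot cohort and not in the second.

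Ly6e, a lipid-anchored surface protein, had the highest CPM of this group and overlapped between the regions in both cohorts, at 1468 and 1695 against 1416 and 1979 CPM and at 2315 and 1584 against 1880 and 1629 CPM (joint log2 fold change 0.01 ± 0.16, adjusted p = 0.973). Ifi27, Ifi35, Xaf1, Trim30a, Parp14, Lgals3bp and Slfn8 were called in none of the 3 regional fits, with joint log2 fold changes from −0.17 to 0.40.

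**Figure D4:**
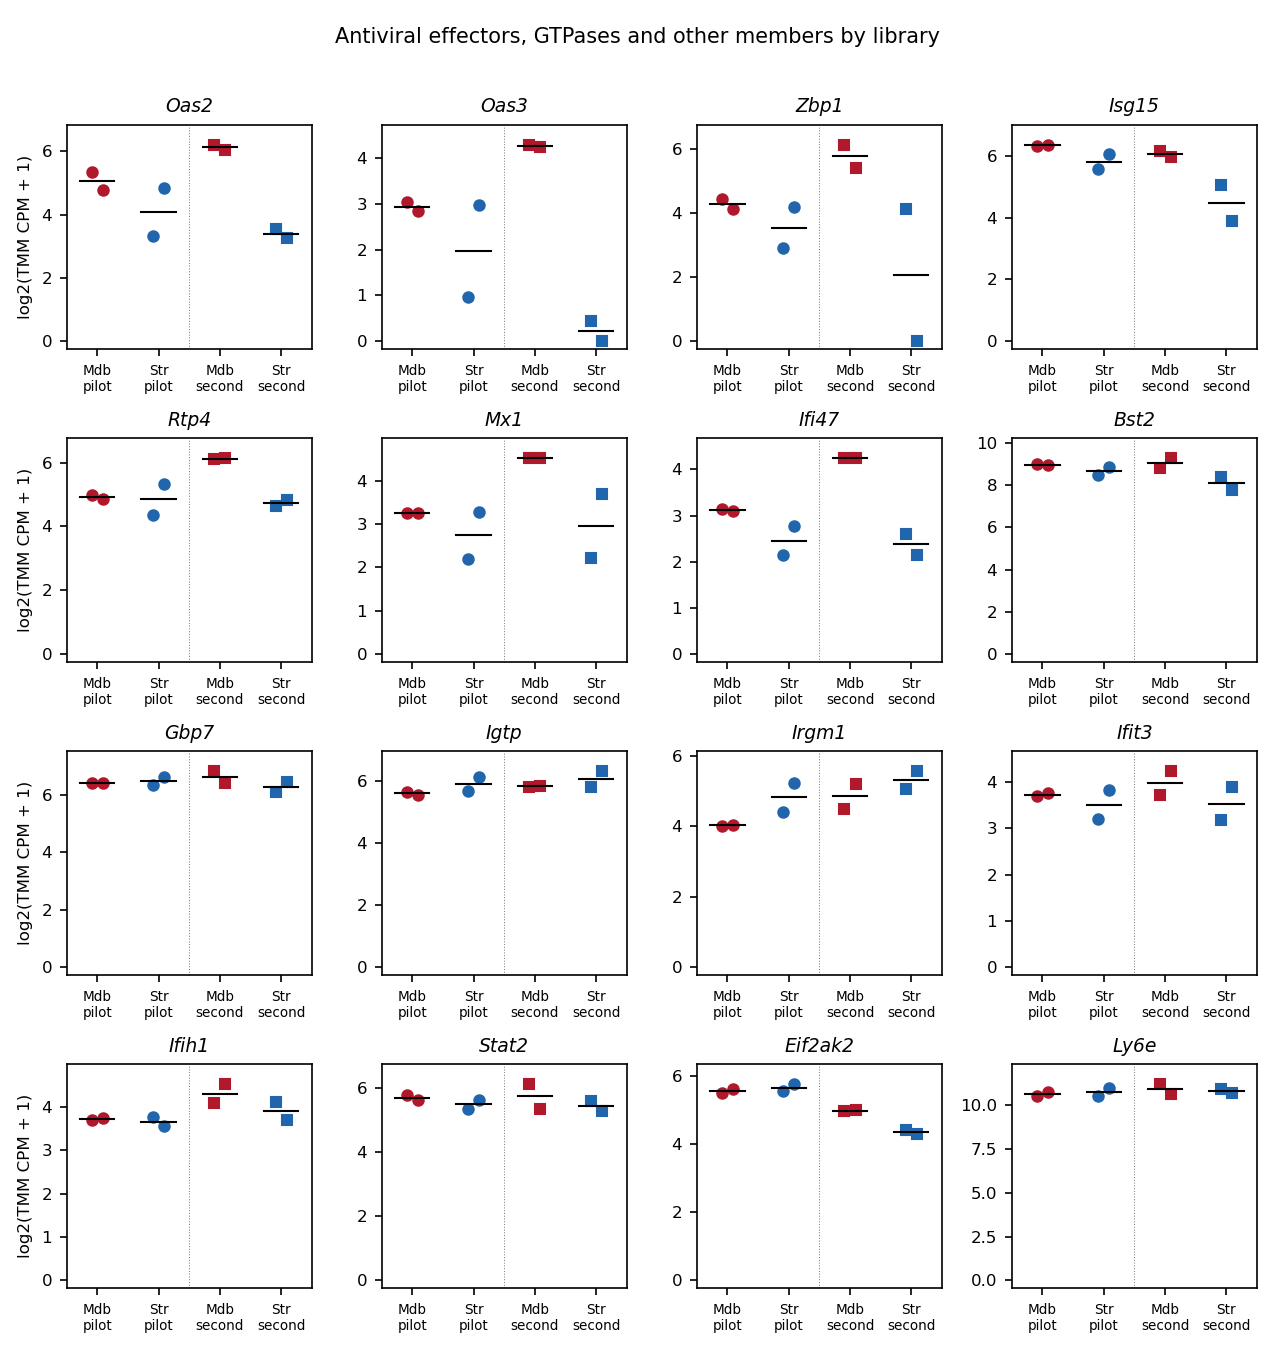
Levels of 16 members in the 8 libraries, as log2(TMM CPM + 1), with points, colours and bars as in the plot of the gene clusters. Oas2, Oas3, Zbp1, Rtp4 and Mx1 separate the regions in the second cohort and not in the pilot, for example 73.0 and 65.2 against 10.5 and 8.59 CPM for Oas2, while Gbp7, Ifit3, Stat2 and Ly6e overlap in both.

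The study repeated the comparison in a second cohort, so the regional differences of the cohorts were compared directly. The log2 fold change was larger in the second cohort for all 12 members called there alone, which their choice by that cohort favours. They were Ifitm3, Ifi211, Ifi47, Mx1, Oas2, Oas3, Bst2, Zbp1, Isg15, Ifi27l2a, Rtp4 and Sp100. However, 0 of 53 members, and 0% of 14053 genes, had an adjusted p under 0.05 for the interaction of region and cohort (limma, smallest adjusted p among members 0.86). At an unadjusted p under 0.05, 7 members and 771 genes passed, among them Oas3, whose interaction term was 3.65 ± 1.19, Ifi27l2a (1.36 ± 0.38), Rtp4 (1.45 ± 0.50) and Irf7 (1.23 ± 0.50). With edgeR 0 members and 0 genes were called, and with DESeq2 0 members and 2 genes.

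Single libraries moved these counts by more than 1.5 times. The counts over all genes, 313 higher and 82 lower in the pilot cohort and 388 and 80 in the second, moved as well. In the pilot cohort, 3 members were called without midbrain library 1, when 99 genes were higher and 9 lower in all, and 14 without striatum library 2, when 482 were higher and 128 lower. Without striatum library 1, 15 members were called, 11 higher and 4 lower (Igtp, Irgm1, Ifi27 and Ly6e), but so were 1325 genes higher and 1120 lower of 14571, and the members called lower were near that share. That fit had a median log2 fold change of 0.15 over the members. In the second cohort, 11 were called without the shallow striatum library 3, when 292 genes were higher and 101 lower in all. Members called in both cohorts numbered 3 without pilot midbrain library 1 and 13 without pilot striatum library 2, when Ifitm3, Oas2, Oas3, Bst2, Zbp1, Isg15 and Ifi27l2a were called in the pilot cohort too.

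**Figure D5:**
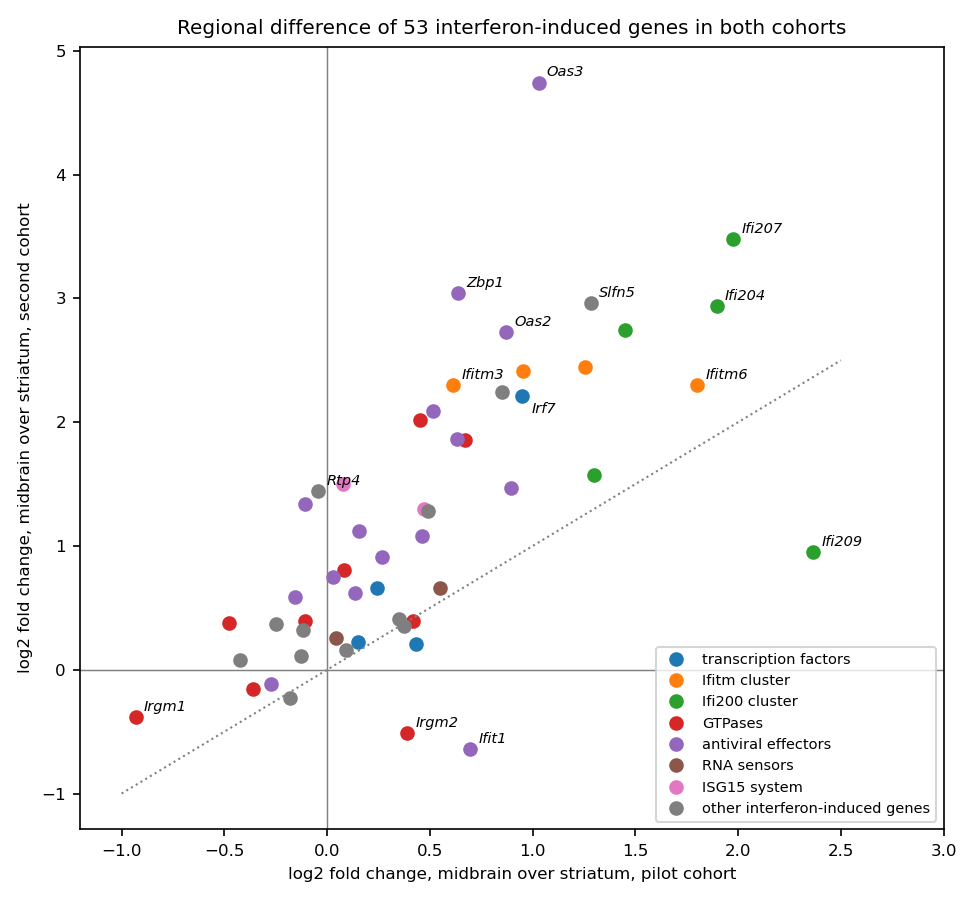
Log2 fold change of midbrain over striatum in the pilot cohort (horizontal) and in the second cohort (vertical) for the 53 members tested in both, coloured by group, with equal values on the dotted line. Most points lie above the line, such as Oas3 at 1.03 and 4.74 and Ifi207 at 1.97 and 3.48, and Ifi209 lies below it at 2.37 and 0.95.

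In the joint fit, whose cohort term averages over both regions, 9 members were higher in the second cohort (adjusted p under 0.05 for the cohort term), against 4.71% of all genes, and 1 was lower, against 5.82%. All 4 Ifitm genes were among the 9, by 1.34 to 1.40 on the log2 scale, together with Ifi207 (1.35 ± 0.32), Ifi209 (1.66 ± 0.45), Ifi27l2a (1.12 ± 0.26), Irf9 (0.89 ± 0.17) and Trim30a (1.66 ± 0.22), and Eif2ak2 was lower (−0.84 ± 0.20). The means of some of these genes moved in the midbrain and hardly in the striatum. Ifi207 averaged 32.4 and 106 CPM in the midbrain of the pilot and second cohort, but 7.85 and 8.48 CPM in the striatum. Ifitm1 averaged 43.9 and 148 CPM against 21.5 and 23.4 CPM. Its striatum libraries of the second cohort were unequal, at 40.0 and 6.87 CPM, the latter near the floor of 5.16 CPM. Ifitm6 averaged 45.2 and 128 CPM in the midbrain and rose in the striatum as well, from 12.3 to 21.6 CPM. Trim30a was higher in both regions, at 10 and 31.7 CPM in the midbrain and 7.44 and 25.2 CPM in the striatum. No interaction passed its test, as given above. The cohort cannot be told apart from anything else that differed between the 2 experiments. Beside these changes, 6 of 12 neutrophil markers and 8 of 15 monocyte markers were higher in the second cohort and 10 of 12 endothelial markers were lower, and the part of these cells was not tested. Without pilot midbrain library 1 or 2 the count of members fell to 1, and that of all genes from 662 higher and 818 lower to 56 and 78 or to 122 and 178. Without pilot striatum library 2 it was 19 members, with 910 genes higher and 1111 lower.

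Upstream of these genes, most interferon transcripts had no counts, with Ifng as the main exception. Of 21 ligand genes, 18 had no count in any of the 8 libraries, and these comprised the alpha and lambda interferons listed. For each of these, a level up to the floor of its library would not have been detectable at this depth. Ifnb1 had 0 and 0.542 against 0 and 0 CPM in the pilot cohort and 2.76 and 0.928 against 0 and 0 CPM in the second. Ifng, the interferon of T and NK cells, had 3.77 and 1.08 against 0.190 and 0.702 CPM and 24.8 and 5.11 against 2.18 and 0 CPM. Its midbrain libraries were above the striatum in both cohorts, but the joint log2 fold change of 2.58 ± 0.85 did not pass (adjusted p = 0.185).

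No receptor chain passed the test between the regions. Of 9 receptor and kinase genes, 8 could be tested jointly and 0 were called, with a median log2 fold change of 0.02. That count is near the share of all genes called higher, 0.975%. Ifnar1, of the type I receptor, was at 62.8 and 54.5 against 54.4 and 66.0 CPM and at 60.9 and 69.1 against 45.5 and 48.1 CPM (0.15 ± 0.17, adjusted p = 0.723). Ifnar2 was at 88.2 and 102 against 99.9 and 124 CPM and at 125 and 136 against 120 and 137 CPM (−0.11 ± 0.15, adjusted p = 0.775). The chains of the interferon gamma receptor ranged from 349 to 536 CPM for Ifngr1 (−0.19 ± 0.13, adjusted p = 0.552) and from 232 to 419 CPM for Ifngr2 (−0.06 ± 0.13, adjusted p = 0.874).

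Further lists of the pathway were read in the same joint fit, which called 0.975% of all genes higher. None of the 14 nucleic acid sensing genes, 8 negative regulators and 4 other GTPases tested was called, which is near that share. The counts in the next 2 lists are above it. Of 6 other Ifitm and Ifi200 genes tested 1 was called, Mndal, which lies beside Ifi203, at 21.2 and 17.5 against 9.10 and 6.20 CPM and at 56.4 and 42.2 against 7.27 and 3.44 CPM (1.94 ± 0.35, adjusted p = 0.0285). Of 29 other induced genes 2 were called, and both were also called in each cohort. Samd9l was at 16.9 and 14.4 against 5.69 and 2.92 CPM and at 29.9 and 20.9 against 5.09 and 1.72 CPM (2.19 ± 0.35, adjusted p = 0.0181). Slfn2, a Schlafen gene known for its part in the quiescence of T cells and monocytes, was at 66.1 and 71.9 against 31.7 and 30.5 CPM and at 148 and 81.9 against 52.4 and 24.1 CPM (1.22 ± 0.23, adjusted p = 0.0367). No gene of these lists was called lower in the midbrain in the joint fit.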

How the data were processed

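The deposited values are raw counts per gene, not normalized. To make them, the authors used STAR 2.5.3a and GRCm38 for alignment, then featureCounts 1.6.0 over exons of Gencode M17 at default settings, which ignore strand. No use of molecular identifiers is named in the sources used here, so counts were treated as read counts. Libraries were grouped by title. The 2 libraries whose title and file name disagree on the region were left out of all groups.

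Gene identifiers were matched to symbols for 53620 of 53715 genes. After TMM scaling (edgeR 4.0.16), voom and limma 3.58.1 were run in R 4.3.3 over all genes. A gene was left out of a fit if over 50% of its libraries held fewer than 6 counts. Tests are two-sided. The call within a cohort was an unadjusted p under 0.01, the study's threshold, and in joint fits a Benjamini-Hochberg adjusted p under 0.05. With 2 libraries per group, an exact permutation test within cohorts could not reach 0.05. Replicate libraries differed by more than sampling noise, so none was counted as a duplicate. Ratios against at most 3 counts have exact binomial intervals. The scripts were tested on simulated counts. The alternatives tried were DESeq2 1.42.0, the quasi-likelihood test of edgeR, no TMM factors, no filter, at least 10 counts in every library, a replicate block, sample quality weights, thinned counts, other thresholds, both placements of the 2 libraries and leaving out each library.

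The genes and lists were chosen with earlier results of these data known. Values in every library are given for called members, the transcription factors, both clusters, Ifit3 and Ifit3b, and the 2 members with the highest mean CPM of each other group. Promoter sequences are from RefSeq (GRCm38), which held 42 of the 54 genes.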

Additional observations from a re-analysis of the deposited data

Results flagged for a closer look

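The 2 libraries of the second cohort with conflicting labels entered no comparison, and both held counts of these genes. In the library titled Mdb 2, with 1584013 counts, 48 of the 54 members were above 3 counts, and in the library titled Str 2, with 5194739 counts, all 54 were. These values stand outside the comparisons and were not used to settle the region of either library. Groups of 2 libraries are too small for a check of single outlying libraries.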

How the results depend on the processing

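With 2 libraries per group, the calls depend on thresholds and on single libraries, and the cause was not tested except where fewer genes, counts or libraries enter by construction. Members called were 8 in the pilot cohort, 19 in the second, 7 in both, 6 in the joint fit, 10 between cohorts and 0 for the interaction. With an adjusted p under 0.05 within cohorts and an unadjusted p under 0.01 in joint fits, they were 0, 5, 0 and 18, and 1 for the interaction. With at least 10 counts in every library, which fewer genes pass, the second cohort, both cohorts, the joint fit and the cohort term gave 5, 1, 1 and 5, and the median log2 fold change was 0.42 in the second cohort and 0.19 in the joint fit. With the 2 unassigned libraries placed by title, these 4 counts were 0, 0, 0 and 5 and the medians 0.33 and 0.35, and over all genes 46 were higher and 86 lower in the second cohort and 0 in the joint fit. With both in the other region the joint fit called 11 members, and 296 genes higher and 144 lower. DESeq2 called 16 members in the joint fit, no filter 10 and sample quality weights 15, and the last gave 18 between cohorts. Over all genes the joint fit called 137 higher and 12 lower, against 221 and 16 with edgeR, 458 and 96 with DESeq2, 358 and 54 with quality weights, 228 and 49 with no filter, 53 and 4 with at least 10 counts, and 572 and 198 at the other threshold. Without a filter the median of all genes moved to −0.15 in the second cohort and −0.11 in the joint fit. Leaving out each library in turn, which assumes that a lone library varies like the others, gave 3 to 15 members in the pilot cohort, 11 to 19 in the second, 3 to 13 in both, 0 to 9 in the joint fit, 1 to 19 between cohorts and 0 for the interaction, and medians of 0.15 to 0.56, 0.90 to 1.02 and 0.43 to 0.80. Same-numbered libraries did not deviate together (correlations of −0.0324 in the pilot and 0.0921 in the second cohort), and with the replicate number as a block 9, 21 and 9 members were called in the pilot cohort, the second cohort and the joint fit, and over all genes the block gave 703 higher and 285 lower in the second cohort (388 and 80 without it) and 252 and 56 in the joint fit. No called member changed direction under any alternative. For single members there were 20 lost calls in 104 repeats in the pilot cohort, 63 in 267 in the second, and 36 lost and 56 gained in 965 in the joint fit.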

Other observations

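In the library titled Mdb 2, Irf7 was at 20.2 CPM, Ifitm6 at 7.34, Ifitm3 at 41.0, Ifi207 at 12.8, Ifi27l2a at 66.1, Oas2 at 7.34 and Oas3 at 1.84 CPM, scaled with TMM factors over all 10 libraries. In the library titled Str 2, the same genes were at 67.3, 121, 311, 69.7, 386, 30.5 and 7.21 CPM. In the same order, Gbp7 was at 105 and 88.6 CPM, Igtp at 72.2 and 67.5 CPM and Ly6e at 1377 and 1727 CPM. The neutrophil markers summed to 1196 and 3394 CPM, the monocyte markers to 565 and 1936 CPM, the border macrophage markers to 305 and 2049 CPM and the homeostatic microglia markers to 76046 and 54877 CPM in the libraries titled Mdb 2 and Str 2.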
